A study of Mus musculus with 1 sample.

Results

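Inhibins and activins are secreted dimers of the transforming growth factor beta family that share their subunits. An inhibin joins the alpha subunit, encoded by *Inha*, to a beta subunit, whereas an activin joins 2 beta subunits, encoded by *Inhba* (beta A) or *Inhbb* (beta B). Activins bind the type II receptors ACVR2A and ACVR2B, which recruit the type I receptor ACVR1B and lead to phosphorylation of SMAD2 and SMAD3. Inhibins oppose this signal by occupying the type II receptors together with the co-receptor betaglycan, encoded by *Tgfbr3*, and follistatin (*Fst*) and follistatin-like 3 (*Fstl3*) bind and block activins outside the cell. In the testis, inhibin B is the classical Sertoli cell hormone that restrains follicle-stimulating hormone, and activin A from fetal interstitial and Leydig cells is known to support Sertoli cell proliferation.

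The 9 genes of this system, 3 subunit genes, 2 antagonist genes and 4 receptor genes, were taken by symbol from the 22631 features of 1 single-cell library. All 9 had a row. The library was made from testes of mouse fetuses, pooled from 12 controls at embryonic day (E) 14.5 according to the labels, which give the genotype as WT. The study counts these 12 as control testes, whereas the labels say only controls, and the number of fetuses is not given. The methods of the study describe controls as *Nr5a1* L2/L2 fetuses, which carry *loxP*-flanked but unrecombined *Nr5a1* alleles and no Cre transgene, on a mixed C57BL/6 and 129/SvPass background and they name E13.5 as a stage too. There was 1 library and no replicate, so no test was made, and the library of mutant testes was not analysed here. All intervals given are exact 95% intervals, which cover counting error only.

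After filtering, 3816 cells with 54452670 unique molecular identifiers (UMIs, each a counted RNA molecule) remained, with a median of 12028 UMIs per cell. Clustering was made without the 9 genes and gave 15 clusters, which were named from lists of marker genes. The classes of at least 50 cells were Sertoli-like (863 cells), germ-like (249), Leydig-like (312), interstitial-like (1365), peritubular myoid-like (516), coelomic epithelium-like (155) and perivascular-like (108). Their median depth ranged from 9288 UMIs per cell in interstitial-like to 35917 in germ-like cells. Of 11 Sertoli markers, 10 had a UMI in at least 25% of Sertoli-like cells, and all 6 Leydig markers did so in Leydig-like cells. The 5 interstitial markers separated their class less well. Their summed level was 2175 CPM (counts per 1000000 UMIs of the class) in interstitial-like, 2602 CPM in peritubular myoid-like and 2148 CPM in coelomic epithelium-like cells, and none of them was among the 10 leading genes of an interstitial-like cluster. In addition, 153 cells remained unnamed, among them a shallow cluster of 64 cells (median 3104 UMIs) nearest to the Sertoli markers. The endothelial-like (42 cells), immune-like (34) and erythroid-like (19) classes were too small to be ranked, and every order of levels given covers the 7 classes of at least 50 cells. The erythroid-like cells had 24.9 CPM of *Inha*, 36.0 CPM of *Inhba* and 22.2 CPM of *Inhbb*, from 9, 13 and 8 UMIs. In these cells, Sertoli markers were at a median of 14.5% of the class in which each was highest. This median was 19.6% for interstitial and 0.230% for Leydig markers. The source of the subunit UMIs there was not tested.

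The 3 subunit genes are single loci without an overlapping gene among the features counted. In GRCm38, *Inha* lies on chromosome 1 (75507077-75510366, plus strand), *Inhbb* on chromosome 1 (119415465-119422248, minus strand) and *Inhba* on chromosome 13 (16011851-16031621, plus strand). The 250 bases before the start of each beta subunit gene are shown because their RNAs were found in different classes (5′ to 3′ on the strand of the gene, RefSeq, GRCm38.p6). Capitals mark the letters TATAAA, the only one of 5 motifs searched on both strands that occurred in either window.
Inhba, chr13:16011601-16011850: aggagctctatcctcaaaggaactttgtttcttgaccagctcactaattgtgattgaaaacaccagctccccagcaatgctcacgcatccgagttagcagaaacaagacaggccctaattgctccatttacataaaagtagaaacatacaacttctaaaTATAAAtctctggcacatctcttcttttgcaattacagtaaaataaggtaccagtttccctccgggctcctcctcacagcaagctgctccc
Inhbb, chr1:119422249-119422498: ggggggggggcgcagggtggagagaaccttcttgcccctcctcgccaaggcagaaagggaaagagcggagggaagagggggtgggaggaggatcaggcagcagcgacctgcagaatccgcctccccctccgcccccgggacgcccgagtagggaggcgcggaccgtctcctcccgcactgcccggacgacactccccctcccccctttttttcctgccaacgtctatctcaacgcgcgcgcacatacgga

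The motif in the *Inhba* window began 91 bases before the start, and 12.4% of 32851 RefSeq promoter windows of this length held it. The *Inhbb* window held none of the 5, which were AGGTCA, the core recognised by NR5A1 (14.0% of windows), the longer CAAGGTCA that contains it (1.33%), the cAMP response element TGACGTCA (1.55%), the GATA motif AGATAA (9.99%) and TATAAA. A match or its lack describes these letters in this window, not the binding of a factor. The RefSeq window of *Inha* (chr1:75507359-75507608) lies inside the gene as GENCODE draws it and is therefore not shown as a promoter.

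*Inha*, the alpha subunit common to all inhibins, was detected at high level in Leydig-like and Sertoli-like cells. It reached 1700 CPM (1667 to 1735, from 9683 UMIs) in Leydig-like cells and 293.6 CPM (284.4 to 303.1, from 3796 UMIs) in Sertoli-like cells, a difference of 5.79-fold (5.58 to 6.01). Sertoli-like cells in turn exceeded interstitial-like cells, the next of the 7 classes at 9.95 CPM (8.34 to 11.8), by 29.5-fold (24.8 to 35.3). The 5 classes of this size below Sertoli-like cells had 2.26 to 9.95 CPM, and neighbours in that order had overlapping intervals. Thus, 70.4% of the *Inha* UMIs of the kept cells came from Leydig-like cells, which were 8.18% of the cells. A further 27.6% came from Sertoli-like cells, which were 22.6% of the cells. The kept cells had 13752 *Inha* UMIs, and the 1233 barcodes removed as doublets or outliers, which had no class, held another 7804.

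The classes differed in depth, so the share of cells with a UMI was also compared after thinning each cell to 5000 UMIs. An *Inha* UMI was then present in 72.8% (67.5 to 77.7) of 309 Leydig-like cells and 68.0% (64.7 to 71.1) of 846 Sertoli-like cells. As read, these shares were 80.8% and 91.2%. Thinning left out 3 Leydig-like, 17 Sertoli-like, 68 interstitial-like and 5 germ-like cells with fewer UMIs. Germ-like cells, taken as a class that should lack the gene, had a UMI in 1.64% of thinned cells, and interstitial-like cells in 4.86%.

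**Figure D1:**
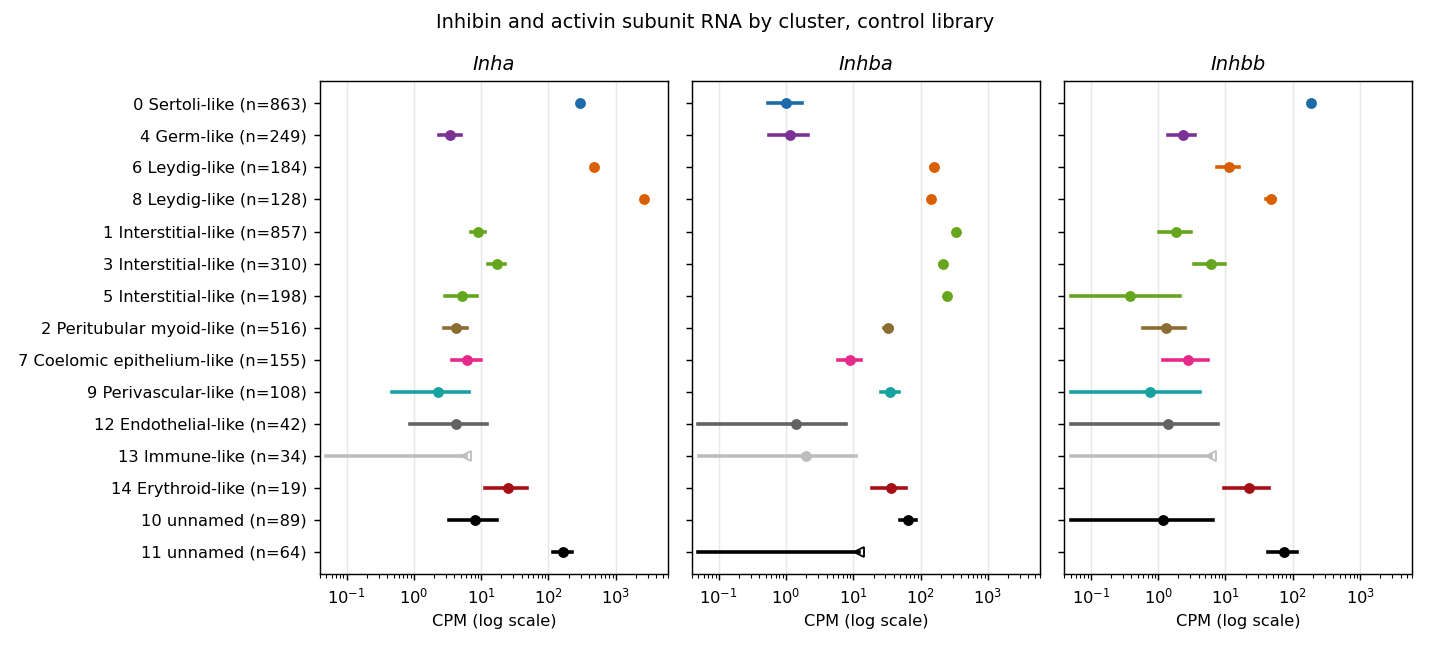
Level of *Inha*, *Inhba* and *Inhbb* in each of the 15 clusters, in CPM on a log axis. Points are summed UMIs of a cluster as CPM, lines are exact 95% Poisson intervals cut at the left edge, and open triangles mark the limit of 3 counts where no UMI was seen. *Inha* was highest in Leydig-like cluster 8 (2670 CPM), *Inhba* in interstitial-like cluster 1 (338.7 CPM) and *Inhbb* in Sertoli-like cluster 0 (186.2 CPM).

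The Leydig-like class held a pair of clusters with different *Inha* levels. In cluster 8 (128 cells, median 21270.5 UMIs), whose 10 leading genes included the steroidogenic genes *Cyp11a1*, *Cyp17a1*, *Star* and *Hsd3b1*, *Inha* reached 2670 CPM (2613 to 2727). Every cell of it had *Inha*, with a lowest value of 738 CPM, a median of 2218 CPM and a highest value of 8612 CPM. In cluster 6 (184 cells, median 13660 UMIs), led by *Nppc* and *Vsnl1*, *Inha* was 5.57-fold lower (5.24 to 5.92) at 479.3 CPM (452.7 to 507.2), with cells from 0 to 5651 CPM and a median of 164.5 CPM. Steroidogenic genes differed in the same direction. *Cyp11a1*, which starts steroid synthesis, was at 10926 CPM in cluster 8 and 2459 CPM in cluster 6. *Star*, which delivers cholesterol to mitochondria, was at 2063 and 398.8 CPM. In cluster 6 the 6 Leydig markers were at 19.3% (*Star*) to 40.8% (*Insl3*) of their cluster 8 levels, and none was among its 10 leading genes. *Nppc* and *Vsnl1* were not particular to cluster 6. They were at 471 and 382.1 CPM there, and at 308.1 and 257.7 CPM in cluster 8.

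Within cluster 6, cells with more *Inha* also had more steroidogenic RNA. Over its 183 thinned cells, the Pearson correlation of log counts with *Inha*, as the mean of 20 random thinnings, was 0.81 for *Cyp11a1* (0.78 to 0.85 over the thinnings), 0.75 for *Cyp17a1* (0.72 to 0.79) and 0.65 for *Insl3* (0.59 to 0.71), the Leydig cell peptide hormone. In cluster 8 the corresponding values over 126 cells were 0.43, 0.34 and -0.09. For the other Leydig markers *Hsd3b1*, *Fdx1* and *Star* they were 0.74, 0.72 and 0.58 in cluster 6. In cluster 8 they were 0.14, 0.02 and 0.08. These values describe cells of 1 library at an equal depth of 5000 UMIs, and have no test. Adrenal cortex markers were also present in cluster 8, where the 3 of them summed to 264 CPM (246 to 283), with 129 CPM of *Cyp11b1*, 90.4 CPM of *Cyp21a1* and 44.7 CPM of *Mc2r*. Their sum was 9.92 CPM (6.42 to 14.6) in cluster 6. The part of adrenal cells in the Leydig-like values was not tested.

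*Inhba*, the subunit of activin A and inhibin A, was highest in interstitial-like cells. Interstitial-like cells had 296.1 CPM (287.0 to 305.5, from 3989 UMIs) and Leydig-like cells 150.7 CPM (140.8 to 161.1, from 858 UMIs), which was 1.97-fold less (1.83 to 2.12). Perivascular-like (35.4 CPM, 26.0 to 47.1) and peritubular myoid-like cells (32.6 CPM, 28.5 to 37.2) came next among the 7 classes and had overlapping intervals. Coelomic epithelium-like cells had 9.01 CPM (5.88 to 13.2). Sertoli-like cells had 1.01 CPM (0.54 to 1.72), with 13 UMIs in 863 cells, and germ-like cells 1.16 CPM (0.56 to 2.13). The interstitial-like level was 295-fold (172 to 554) that of Sertoli-like cells, and 76.2% of the *Inhba* UMIs of the kept cells came from the interstitial-like class.

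Among the interstitial-like clusters, *Inhba* was at 338.7 CPM (326.2 to 351.6) in cluster 1, led by *Colec11*, at 248.7 CPM (230.1 to 268.3) in cluster 5, led by histone genes of S phase, and at 213.5 CPM (196.3 to 231.7) in cluster 3, led by *Ntng1*. Cluster 1 was thus 1.36-fold (1.25 to 1.49) above cluster 5 and 1.59-fold (1.45 to 1.74) above cluster 3. *Inhba* was itself among the 10 leading genes of cluster 1, although it had not been used to make the clusters. The unnamed cluster 10, whose nearest list was interstitial, had 64.7 CPM (48.7 to 84.2), which was less than in any of the 3 named ones. In contrast to *Inha*, *Inhba* was at like levels in both Leydig-like clusters, 158.3 CPM (143.2 to 174.6) in cluster 6 and 144.6 CPM (131.7 to 158.5) in cluster 8, a ratio of 1.10 (0.96 to 1.26). Within cluster 6, cells with more *Inhba* had less steroidogenic RNA. Over the thinnings, its mean r with the Leydig markers ran from -0.36 (*Cyp17a1*) to -0.26 (*Star*). In cluster 8 it ran from -0.04 (*Cyp17a1*) to 0.08 (*Cyp11a1*).

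At 5000 UMIs per cell, 64.0% (61.3 to 66.6) of interstitial-like, 39.5% (34.0 to 45.2) of Leydig-like and 13.7% of peritubular myoid-like cells had an *Inhba* UMI. The share was 0.591% for Sertoli-like cells and 0.410% for germ-like cells.

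*Inhbb*, the subunit of activin B and inhibin B, was mainly a Sertoli-like cell RNA. Its level was 186.2 CPM (178.8 to 193.8, from 2407 UMIs) in Sertoli-like cells and 31.1 CPM (26.7 to 36.0, from 177 UMIs) in Leydig-like cells, a difference of 5.99-fold (5.14 to 7.02). The other 5 classes of at least 50 cells lay between 0.754 and 2.77 CPM. Sertoli-like cells held 89.8% of all *Inhbb* UMIs, and 57.2% (53.8 to 60.6) of them had a UMI after thinning, against 8.74% of Leydig-like and 0.820% of germ-like cells. Between the Leydig-like clusters, *Inhbb* differed in the direction of *Inha*, whereas *Inhba* was at like levels. *Inhbb* was at 46.9 CPM (39.7 to 55.1) in cluster 8 and at 11.1 CPM (7.38 to 16.1) in cluster 6, a difference of 4.23-fold (2.81 to 6.57). Over the thinned cells of a cluster, its mean r with *Inha* was low, at 0.17 in cluster 6 and 0.10 in cluster 8. With *Inhba* it was -0.02 and 0.08.

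Free RNA from lysed cells can add UMIs of an abundant gene to all classes, and it then adds the other genes of the same source in 1 ratio. *Inhbb* in cluster 8 was at 25.2% of its Sertoli-like level. Of the 11 Sertoli markers there, 9 were at 0 to 2.91% of the cluster in which each was highest, whereas *Mro* was at 15.6% and *Vnn1* at 52.8%, with a median of 0.713%. *Inha* in Sertoli-like cells was at 17.3% of its Leydig-like level, and the 6 Leydig markers there were at 0.047% (*Insl3*) to 1.755% (*Fdx1*) of theirs. *Inhba* in cluster 8 was at 42.7% of its level in cluster 1, and the 5 interstitial markers there were at 1.97 to 14.5% of the cluster in which each was highest. In cluster 6 the interstitial markers were at 6.30 to 30.8%, and *Inhba* at 46.7%.

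*Inhba* in Sertoli-like cells was at 0.340% of its interstitial-like level, beside 0.587 to 1.09% for the 5 interstitial markers. *Inha* in germ-like cells was at 0.204% of its Leydig-like level, beside 0.070 to 1.43% for the 6 Leydig markers. The median of these markers was 0.123%, and the top was *Fdx1*, which had at least 44.3 CPM in every cluster. *Inhbb* in germ-like cells was at 1.24% of its Sertoli-like level, beside 0.444 to 1.60% for the 11 Sertoli markers. These 3 shares lay below or within the ranges of the markers, and they are read neither as expression nor as its lack. The part of free RNA in any of these levels was not tested.

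The subunits present set which dimers a class could assemble, and RNA alone does not show which were made. Of the beta subunit UMIs of Sertoli-like cells, 99.5% (99.1 to 99.7, of 2420) were *Inhbb*, and of those of interstitial-like cells 99.2% (98.9 to 99.5, of 4021) were *Inhba*. Leydig-like cells had both, with 82.9% (80.5 to 85.1, of 1035) *Inhba* and 17.1% *Inhbb*. The *Inhbb* share was 24.5% (21.1 to 28.1) in cluster 8 and 6.56% (4.40 to 9.34) in cluster 6.

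**Figure D2:**
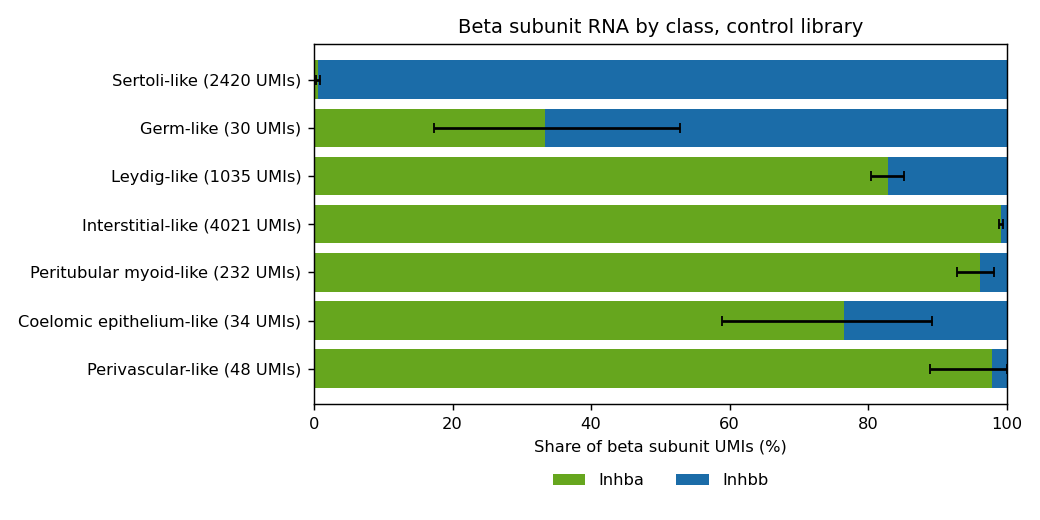
Share of *Inhba* (green) and *Inhbb* (blue) among the beta subunit UMIs of each class of at least 50 cells, in percent, with the number of these UMIs in brackets. Error bars are exact 95% Clopper-Pearson intervals of the *Inhba* share. Sertoli-like cells were at 99.5% *Inhbb*, interstitial-like cells at 99.2% *Inhba*, and Leydig-like cells between them at 82.9% *Inhba*.

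Alpha subunit UMIs exceeded beta subunit UMIs 9.36 to 1 in Leydig-like cells (13.9 to 1 in cluster 8 and 2.83 to 1 in cluster 6) and 1.57 to 1 in Sertoli-like cells. In interstitial-like cells there were 0.033 alpha UMIs per beta UMI. The UMIs were counted at the 3′ end of transcripts, which does not scale with transcript length, but the efficiency of capture of each transcript was not measured.

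In single Sertoli-like cells thinned to 5000 UMIs, *Inha* and *Inhbb* were detected together in 324 of 846 cells (38.3%, 35.0 to 41.7), *Inha* alone in 251, *Inhbb* alone in 160 and neither in 111. *Inha* was found in 66.9% of the cells with *Inhbb* and 69.3% of those without it. In cluster 8, *Inha* was detected in all 126 thinned cells, in 54 of them (42.9%, 34.1 to 52.0) with *Inhba* and in 18 (14.3%, 8.69 to 21.6) with *Inhbb*. In cluster 6, *Inha* was detected in 39.7% of the cells with *Inhba* and in 62.6% of those without it (183 cells). In interstitial-like cells, *Inhba* was detected without *Inha* in 796 of 1297 cells and with it in 34 (2.62%, 1.82 to 3.64).

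**Figure D3:**
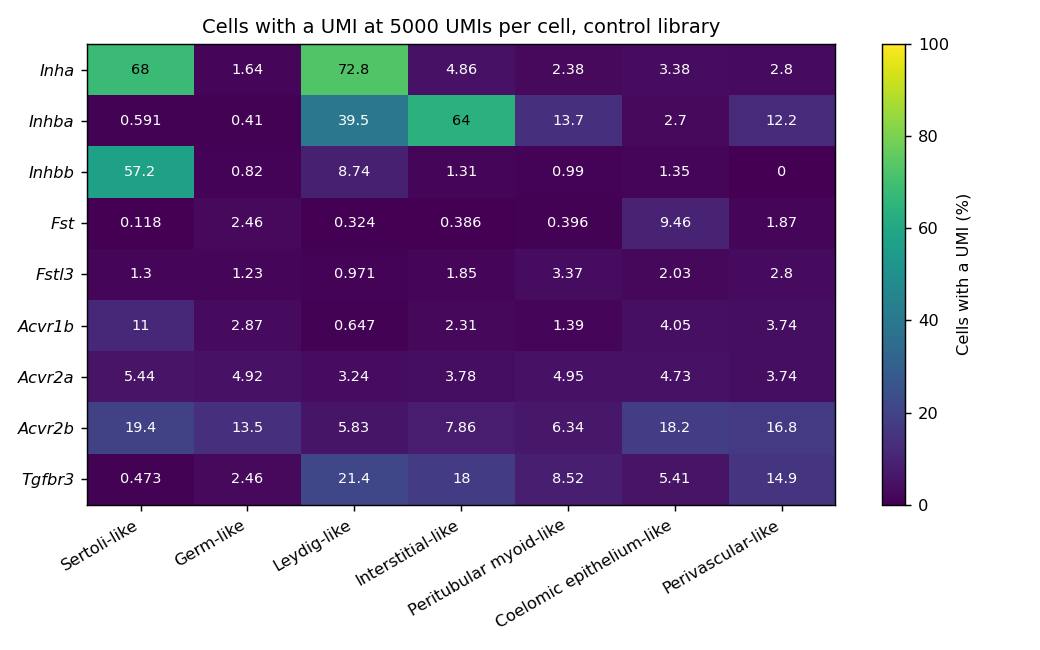
Percent of cells with at least 1 UMI of each gene after thinning every cell to 5000 UMIs, for the 7 classes of at least 50 cells, on a colour scale from 0 to 100%. The highest shares are those of *Inha* in Leydig-like (72.8%) and Sertoli-like cells (68.0%), *Inhba* in interstitial-like cells (64.0%) and *Inhbb* in Sertoli-like cells (57.2%).

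The activin antagonists were scarce. *Fst* (chromosome 13, 114452290-114458951, minus strand) had 150 UMIs in all kept cells. Of these, 64 were in coelomic epithelium-like cells, whose level was 22.2 CPM (17.1 to 28.3). This was 4.89-fold (3.14 to 7.76) above peritubular myoid-like cells (4.54 CPM, 3.08 to 6.44) and 5.80-fold (3.76 to 9.12) above germ-like cells (3.82 CPM, 2.63 to 5.36). Interstitial-like cells had 6 *Fst* UMIs and Sertoli-like cells 3, so the classes with the most *Inhba* and the most *Inhbb* were at 0.445 and 0.232 CPM of *Fst*.

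The *Fst* UMIs were spread unevenly. In peritubular myoid-like cells, 6 of 516 cells held the 31 UMIs, and 1 cell held 18 of them; without that cell the level was 1.91 CPM. In coelomic epithelium-like cells, 24 of 155 cells had a UMI and the richest cell had 13, and without the richest 3 cells the level was 12.8 CPM, above the level of each other class. In germ-like cells, by comparison, 29 of 249 cells held the 33 UMIs and 25 of these held 1 each. Germ-like *Fst* was at 17.2% of the coelomic level. The 7 coelomic markers in germ-like cells ranged from 0.139% (*Upk3b*) to 20.7% (*Bnc1*) of theirs, with a median of 4.39%. After thinning, 9.46% of coelomic epithelium-like and 2.46% of germ-like cells had an *Fst* UMI.

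*Fstl3* (chromosome 10, 79777272-79782630, plus strand), the second antagonist, had 140 UMIs and showed no class that stood apart. Its levels ran from 6.78 CPM (3.101 to 12.87, 9 UMIs) in perivascular-like cells through 4.24 CPM in peritubular myoid-like, 3.34 in interstitial-like, 2.71 in Sertoli-like and 2.43 in coelomic epithelium-like cells to 0.527 CPM (0.109 to 1.54, 3 UMIs) in Leydig-like cells. All neighbours in this order had overlapping intervals. The ends, perivascular-like and Leydig-like cells, were 12.9-fold apart (3.21 to 73.9), and interstitial-like cells were 6.34-fold (2.04 to 31.9) above Leydig-like cells. These intervals make no allowance for the choice of classes from the ends of an order. *Fstl3* overlaps *Prss57*, which lies on the opposite strand and is also in the count table.

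**Figure D4:**
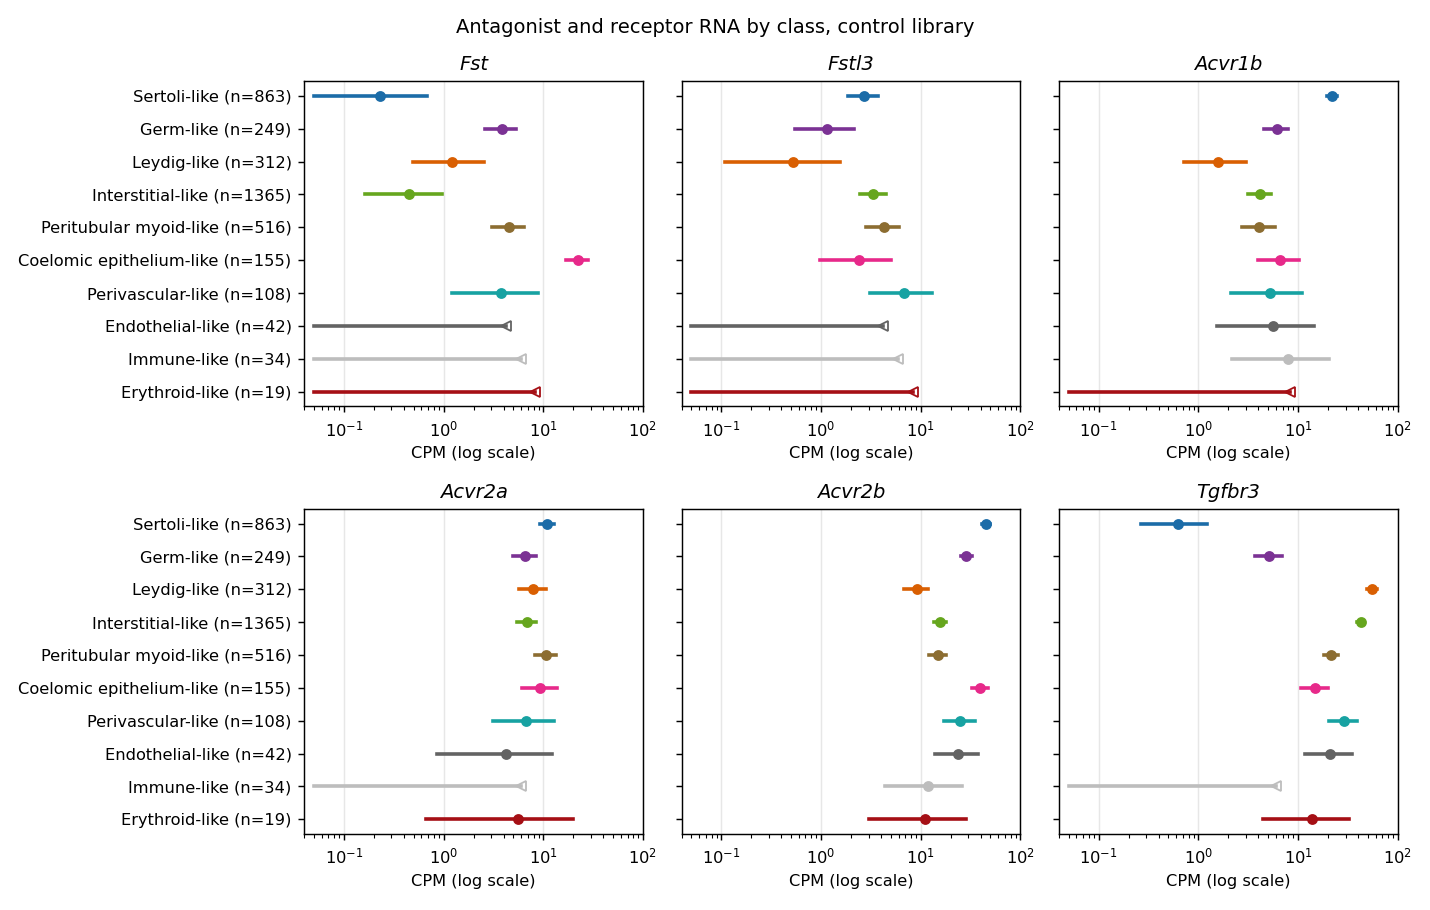
Level of the antagonist and receptor genes in each of the 10 classes, in CPM on a log axis. Points are summed UMIs of a class as CPM, lines are exact 95% Poisson intervals cut at the left edge, and open triangles mark the limit of 3 counts where no UMI was seen. *Fst* was highest in coelomic epithelium-like cells (22.2 CPM), *Acvr1b* and *Acvr2b* in Sertoli-like cells (22.0 and 45.2 CPM), and *Tgfbr3* in Leydig-like cells (55.0 CPM) with 0.619 CPM in Sertoli-like cells.

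The receptor RNAs had UMIs in every class of at least 50 cells. *Acvr1b* (chromosome 15, 101174067-101213684, plus strand), the type I receptor that transmits the activin signal, was highest in Sertoli-like cells at 22.0 CPM (19.6 to 24.8, from 285 UMIs). The next class, coelomic epithelium-like cells, had 6.58 CPM (3.96 to 10.3), and germ-like cells had 6.13 CPM, 3.59-fold less (2.67 to 4.91) than Sertoli-like cells. Leydig-like cells had the lowest level, 1.58 CPM (0.723 to 3.00, from 9 UMIs). The order between coelomic epithelium-like and Leydig-like cells could not be resolved between neighbours.

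Of the type II receptors, *Acvr2b* (chromosome 9, 119402118-119434995, plus strand) was at 45.2 CPM (41.7 to 49.1) in Sertoli-like and 39.5 CPM (32.6 to 47.4) in coelomic epithelium-like cells, whose intervals overlapped. Germ-like cells had 28.8 CPM (25.4 to 32.6), perivascular-like cells 24.9, interstitial-like cells 15.8 (13.8 to 18.1), peritubular myoid-like cells 14.8 and Leydig-like cells 9.13 CPM (6.82 to 12.0). Sertoli-like cells were thus 2.86-fold (2.44 to 3.36) above interstitial-like and 4.96-fold (3.73 to 6.71) above Leydig-like cells. *Acvr2a* (chromosome 2, 48814109-48903269, plus strand; overlapping *Orc4* on the opposite strand) was flatter, between 6.60 CPM (4.997 to 8.548) in germ-like and 10.9 CPM (9.18 to 12.9) in Sertoli-like cells, with overlapping intervals for all neighbours. The ratio of these ends was 1.65 (1.21 to 2.29), an interval that makes no allowance for their choice as ends.

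The co-receptor gene *Tgfbr3* (chromosome 5, 107106570-107289629, minus strand) had the opposite distribution to *Acvr1b*. Leydig-like cells had 55.0 CPM (49.0 to 61.4) and interstitial-like cells 42.8 CPM (39.3 to 46.4), a ratio of 1.29 (1.117 to 1.478). Perivascular-like (28.6 CPM), peritubular myoid-like (21.4 CPM) and coelomic epithelium-like cells (14.9 CPM) followed, and germ-like cells had 5.09 CPM (3.70 to 6.84). Sertoli-like cells had 8 UMIs in all, or 0.619 CPM (0.267 to 1.22), and were 69.1-fold (34.8 to 161) below interstitial-like cells. This was 1.13% of the Leydig-like level. The Leydig markers in these cells were at 0.047 to 1.755% of theirs, with a median of 0.489%. The top of that range was *Fdx1*, which had at least 44.3 CPM in every cluster. Whether the 8 UMIs were free RNA was not tested, and they are read neither as expression nor as its lack. Both Leydig-like clusters were alike, with 54.0 CPM (45.3 to 63.8) in cluster 6 and 55.8 CPM (47.9 to 64.6) in cluster 8.

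At 5000 UMIs per cell, few single cells showed receptors together. *Acvr1b* and *Acvr2b* were both detected in 17 of 846 Sertoli-like cells (2.01%, 1.18 to 3.20), whereas 11.0% had *Acvr1b* and 19.4% had *Acvr2b*. At this depth, joint detection of genes of this level does not show whether a cell lacks one of them. In interstitial-like cells, *Inhba* and *Tgfbr3* were detected together in 156 of 1297 cells (12.0%, 10.3 to 13.9). *Inhba* was found in 66.95% of the interstitial-like cells with *Tgfbr3* and in 63.35% of those without it. In Leydig-like cells these shares were 31.8% and 41.6%.

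**Figure D5:**
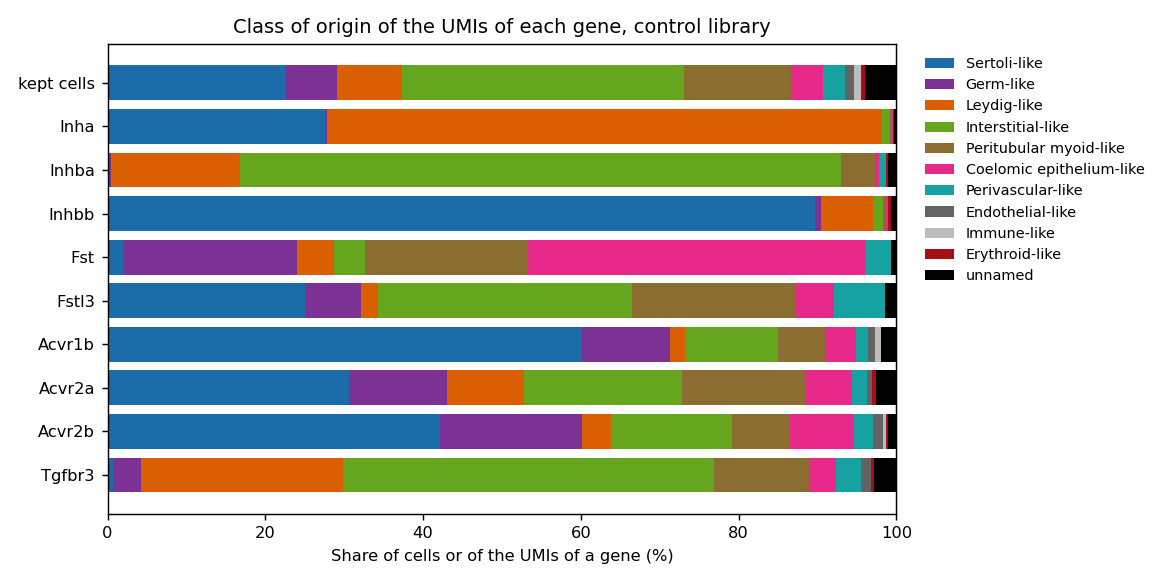
Class of origin of the UMIs of each gene in the kept cells, in percent, below the share of each class among the 3816 kept cells in the top bar. *Inha* UMIs came mostly from Leydig-like cells (70.4%), *Inhba* UMIs from interstitial-like cells (76.2%) and *Inhbb* UMIs from Sertoli-like cells (89.8%), while those of *Acvr2a* and *Fstl3* were spread over many classes.

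Across the 12 clusters of at least 50 cells, levels on a log2(CPM + 5) scale were compared with those of 9203 genes. These correlations describe clusters of 1 library and have no test. The 12 clusters are not 12 cell types. Interstitial-like and Leydig-like cells held more than 1 cluster each, and both unnamed clusters were included. The genes most like *Inha* were *Susd3*, *Rabep2* and *Cst8* (Pearson r of 0.98 each), and those most like *Inhbb* were *Plcb2*, *Clu*, which encodes clusterin (both 0.99), and *Fam155a* (0.98). Those most like *Inhba* were *Gna14* (0.97), *Stc1*, which encodes stanniocalcin 1, and *Pltp* (both 0.95). For *Fst* they were *Nell2* (0.96), *Crb2* (0.94) and *Tmem108* (0.93), and for *Tgfbr3* they were *Cped1* (0.97), *Fxyd1* and *Pacsin3* (both 0.95). *Fst* also rested on few UMIs. It was at 22.2 CPM in coelomic epithelium-like cluster 7, where its like genes were highest too, and at 4.54 CPM or less in the other clusters. *Acvr1b* and *Acvr2b* had the same gene in the first place, the collagen receptor gene *Ddr1* (0.91 and 0.89). The highest value for *Acvr2a* was 0.83, with *Eps15l1*, and for *Fstl3*, which rested on few UMIs, 0.94, with *Sema6d*.

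Among the genes of the system, *Inhba* and *Tgfbr3* had the highest mutual correlation across clusters, with r of 0.92. The shallow unnamed cluster nearest to the Sertoli markers had no UMI of either gene. *Inha* and *Inhbb* followed with 0.80, and *Acvr1b* and *Acvr2b* with 0.71. *Inha* and *Inhba* had an r of 0.01, and *Tgfbr3* and *Acvr1b* one of -0.77. The nuclear receptor gene *Nr5a1*, which the study deleted in Sertoli cells of the mutants, correlated with *Inha* at 0.92, with *Inhbb* at 0.66 and with *Inhba* at 0.28.

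A list of 38 further genes of the activin, nodal and transforming growth factor beta pathways was compared between each class and all other kept cells. A gene was counted as higher or lower when its level differed at least 2-fold after addition of 5 CPM, among the 10527 genes with at least 5 CPM over all kept cells. Of the list, 26 genes reached this level, and of the 9 genes described above 7 did, since *Fst* and *Fstl3* fell short. The genes for the further subunits beta C and beta E (*Inhbc*, *Inhbe*) and for GDF1 and myostatin (*Gdf1*, *Mstn*) had no UMI in a class of at least 50 cells.

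In Sertoli-like cells, 3 of the 26 genes were higher, against 9.03% of all genes tested, and 7 were lower, against 11.7%. The higher ones were *Smad7*, which encodes an inhibitory SMAD (374.5 CPM), the SMAD corepressor gene *Tgif1* (126.1 CPM) and the co-receptor gene *Tgfbr3l* (54.1 CPM). *Tgfbr3l* was at 2.63 CPM or less in the other classes of this size. The lower ones were the ligand genes *Tgfb2* (0.851 CPM) and *Gdf11* (1.32 CPM), the receptor genes *Tgfbr2* (1.70 CPM) and *Eng* (0.232 CPM), and *Lefty1*, *Lefty2* and *Fstl1*. Of the 7 members of the activin system tested, *Inhbb*, *Acvr1b* and *Acvr2b* were higher, and *Inhba* and *Tgfbr3* lower. The median log2 ratio of the pathway list was -0.28, beside -0.02 over all genes.

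In Leydig-like cells, 4 of 26 pathway genes were higher (4.90% of all genes) and 11 were lower (13.0%). The higher ones were *Lefty2*, an antagonist of nodal signalling (137.7 CPM), the genes of the proprotein convertases *Pcsk5* (122.6 CPM) and *Pcsk6* (73.1 CPM), and *Gdf11* (16.2 CPM). *Lefty2* was at 22.6 CPM in germ-like cells and at 0.693 CPM or less in the other 5 classes. *Smad7* (25.8 CPM) and *Pmepa1*, a SMAD-induced inhibitor (23.4 CPM), were among the lower ones. The pathway median was -0.58, beside -0.24 over all genes. *Inha* and *Tgfbr3* were the members higher here, and *Acvr1b* and *Acvr2b* the members lower.

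In interstitial-like cells, *Pmepa1* (219.6 CPM) and *Pcsk5* (99.9 CPM) were higher (2 of 26, against 4.67% of all genes) and 5 genes were lower (8.63%), with a median of 0.16 beside -0.04. *Smad7* (72.4 CPM) was among the lower ones. The log2 ratio of *Pmepa1* was 1.007, close to the limit. Peritubular myoid-like cells had a like level of it (217.6 CPM) but fell short of the limit with a log2 ratio of 0.80. The members higher in interstitial-like cells were *Inhba* and *Tgfbr3*, and those lower *Inha* and *Inhbb*. Peritubular myoid-like cells had more *Fstl1* (427.8 CPM) and *Tgfb2* (145.8 CPM, 2 of 26 against 3.02%, with 2 lower against 8.63%), coelomic epithelium-like cells more *Tgfb2* (133.0 CPM) and *Tgfb3* (27.7 CPM, 2 of 26 against 3.19%, with 4 lower against 7.82%), and perivascular-like cells more *Pmepa1* (387.3 CPM), *Tgfb2* (124.3 CPM) and *Eng* (38.4 CPM, 3 of 26 against 2.55%, with 3 lower against 8.25%). No member was higher in these 3 classes, and *Inha*, *Inhba* and *Inhbb* were lower in each.

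In germ-like cells, 16 of 26 pathway genes were lower, and 28.7% of all genes tested were lower there as well. The median log2 ratio was -1.34 for the list and -0.31 for all genes. One gene was higher (10.8% of all genes), *Lefty1* (52.7 CPM), a feedback antagonist of nodal. Of the members, *Inha*, *Inhba*, *Inhbb* and *Tgfbr3* were lower. The ligand genes *Gdf3* (19.0 CPM) and *Nodal* (12.2 CPM) and the co-receptor gene *Tdgf1* (3.36 CPM) fell short of the level required over all cells and were chosen after their values were seen. They were at 0.309 CPM or less in the other 6 classes of at least 50 cells.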

How the data were processed

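RNA of single cells from pooled control testes was measured with the 10x Chromium 3′ v3 kit. The authors deposited raw UMI counts for each gene in each barcode. They had aligned the reads with Cell Ranger to mm10 (GRCm38), extended by the sequence of YFP. The submitters' processing notes name Cell Ranger 3.0.2 and 3.1.0, and the methods another version. The annotation they counted on is not given in the sources used here, and gene positions were taken from GENCODE vM21.

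The library had 5421 barcodes and 72595083 UMIs. Barcodes with fewer than 200 genes (372), the 204 barcodes (4.04%) with the most artificial doublets among their neighbours, and 1029 barcodes beyond 3 median absolute deviations of the ribosomal-protein or mitochondrial share, or of the log of genes or UMIs, were removed. Cells were clustered with Seurat 5.3.0 and sctransform 0.4.2 in R 4.3.3 on 3000 variable genes, cell cycle and mitochondrial share regressed out, 30 components and resolution 0.8. The 9 member genes were kept out of the variable genes, among which 5 would have fallen. A cluster took the name of a marker list whose mean log2 ratio to the other cells was at least 1, with at least 3 markers in 25% of its cells. A cluster far shallower than the library that had none of its markers among its 10 leading genes stayed unnamed.

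Levels are summed UMIs of a gene per 1000000 UMIs of a class (CPM), with exact Poisson intervals, and ratios of levels have exact conditional binomial intervals. Shares have Clopper-Pearson intervals. All are at 95%. The software was scikit-learn 1.9.0, pandas 2.3.3, scipy 1.17.1 and numpy 2.4.6 under Python 3.11.15. With 1 library no test was made, because cells are not replicates. The member genes, marker lists and pathway list were chosen with earlier results of these data known. From these lists, the 9 members and some of the pathway genes past 2-fold in a class were named. At least 1 of the 3 genes with the highest correlation across clusters was named for each member. The pathway genes *Gdf3*, *Nodal*, *Tdgf1*, *Inhbc*, *Inhbe*, *Gdf1* and *Mstn* were named although they fell short of the level required. The 2-fold call on summed counts and the Poisson intervals were tried on simulated Poisson counts with planted 4-fold changes. Poisson intervals hold for such counts by construction, so this does not show how they hold for real cells. The variance of *Inha* over Leydig-like cells at 5000 UMIs was 7.80 times its mean. The other steps were not tried on simulated data. Other filters, doublet rates, resolutions, normalizations, class assignments, thinning depths and fold limits were tried. The mutant library was not used here.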

Additional observations from a re-analysis of the deposited data

Results flagged for a closer look

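Barcodes that did not enter the comparisons also held RNA of the subunit genes. The 372 barcodes with fewer than 200 genes held 1409901 UMIs in all, 5 of them of *Inha*. Their level of 3.55 CPM (1.15 to 8.28) lies within the 2.26 to 9.95 CPM of the 5 classes below Sertoli-like cells. It is not read as a background level, because these UMIs fell on few genes per barcode. The 1233 barcodes removed as doublets or outliers had 466.4 CPM of *Inha* (456.1 to 476.9), 62.6 CPM of *Inhba* (58.8 to 66.5) and 32.8 CPM of *Inhbb* (30.1 to 35.7). Over all kept cells these levels were 252.5, 96.2 and 49.2 CPM, so the removed barcodes were richer in *Inha* and poorer in both beta subunits. When the limit on outliers was lifted, 2151 CPM of *Inha* were found in Leydig-like cells.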

How the results depend on the processing

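*Inha*, *Inhba*, *Inhbb*, *Fst*, *Acvr1b*, *Acvr2b* and *Tgfbr3* were highest in the same class under all 12 settings of filtering, clustering and class assignment. These include the main setting and the one added after seeing the data (the shallow cluster counted as Sertoli-like). *Acvr2a* and *Fstl3* led in peritubular myoid-like cells under 1 setting each. Of 693 values of level by class, 628 stayed within the counting interval. Some had little or no room to move. Of the classes of at least 50 cells, the shallow-cluster setting changed Sertoli-like cells only. Resolution 0.4 left the Sertoli-like, germ-like, Leydig-like and coelomic epithelium-like classes at the same numbers of cells. *Inha* in Leydig-like cells was 2122 CPM at 5 deviations, 2151 with no outlier filter and 2099 with no doublets removed. It was 2093 at resolution 1.2, 1742 after log-normalization and 1911 with each cell classed by itself. Sertoli-like cells had 285.5 to 293.6 CPM of *Inha* under these settings. The difference between the classes was therefore larger in each of them than the 5.79-fold of the main setting. The Leydig-like class held 228 cells at resolution 1.2 and 388 with no outlier filter, beside 312 in the main setting. *Inhba* in interstitial-like cells was 285.5 CPM with no doublets removed, 318.5 at a doubled doublet rate, 258.6 at resolution 1.2, 286.3 with the members among the clustering genes, 284.2 after log-normalization and 241.5 with each cell classed by itself. The *Inhbb* share of beta subunit UMIs was 95.8% in Sertoli-like and 24.4% in Leydig-like cells with no doublets removed, 23.2% and 20.1% in Leydig-like cells at resolution 1.2 and with each cell classed by itself, and 0.483% in interstitial-like cells at a doubled doublet rate. At 4-fold, 3 pathway genes were lower in Sertoli-like cells, and 0 were higher and 1 lower in interstitial-like cells. The causes of these shifts were not tested. No paired analysis was possible because there was 1 library. Depth limits *Fst* and *Fstl3*, with 150 and 140 UMIs.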
